A study of Aspergillus luchuensis with 6 samples.

Results

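The quietest stretches of the control genome were followed into a strain without sirtuin D. They are the 10-kb windows with the fewest transcription start tags in the control strain, and they number 68 of the 342 windows into which 2 scaffolds were cut. Start tags came from CAGE (cap analysis of gene expression), which sequences the capped 5′ ends of transcripts, so that each tag marks a start site on a known strand. The organism was Aspergillus luchuensis mut. kawachii, a white mould used to make koji, and RNA had been taken from rice koji, which is steamed rice fermented with the mould. There were 3 libraries of the control strain (labelled ctrl4) and 3 of a strain with the sirtuin D gene disrupted (labelled sirD). Both strains were sampled from koji, no age or added agent is given in the labels, and each group consists of 1 strain only, so that strain and disruption cannot be told apart. The labels do not say whether replicates came from separate cultures, and p-values then measure only the spread between libraries, which may be technical. The disrupted gene was not located in these coordinates, and its level is not analysed here.

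Sirtuins are NAD-dependent protein deacylases, and the founding member of the family, Sir2 of budding yeast, removes acetyl groups from histones at silent mating-type loci, telomeres and ribosomal DNA. Loss of such an enzyme in yeast lets silent chromatin be transcribed. In Aspergillus, deacetylases are known for their influence on secondary metabolite gene clusters, many of which are silent under common culture conditions. Quiet windows are therefore the places where a gain of start tags would show if a sirtuin kept them silent.

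Windows were cut at multiples of 10 kb on scaffold 1 (DF126447.1, 1 to 2070000) and on scaffold 2 (DF126448.1, 110001 to 470000 and 1010001 to 2000000). Tags of both strands were summed over the 3 control libraries, and the members were chosen by this sum, as the lowest 1 in 5 of all windows. The sums are therefore given as a description. The quiet windows held 38 to 2723 control tags with a median of 1311, and the other 274 held 2750 to 162502 with a median of 9280. Just inside the limit lay the windows of scaffold 2 at 1850001 to 1860000 (2666 tags), scaffold 1 at 540001 to 550000 (2691 tags) and scaffold 1 at 1130001 to 1140000 (2723 tags). Just outside lay those of scaffold 1 at 1690001 to 1700000 (2750 tags), 600001 to 610000 (2828 tags) and 890001 to 900000 (2831 tags). The limit thus cuts through a continuous range of levels and separates no distinct class.

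**Figure D1:**
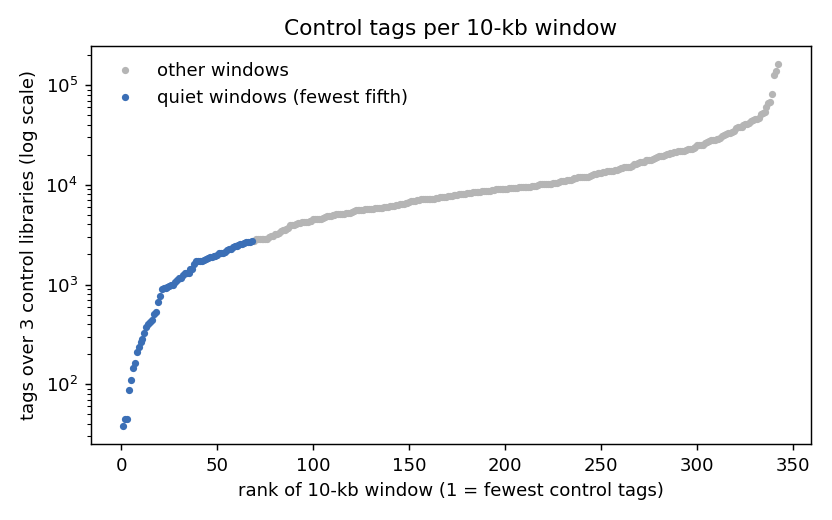
Tags over the 3 control libraries (log scale) of all 342 windows in rank order, 1 point per window, with the 68 quiet windows in blue. The curve is steepest among the lowest ranks, from 38 tags upwards, and passes the limit at 2723 tags without a step.

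Quiet windows lay on both scaffolds. They made up 36 of 207 windows of scaffold 1 (17.4%), 4 of 36 windows between 110001 and 470000 of scaffold 2 (11.1%) and 28 of 99 windows between 1010001 and 2000000 of scaffold 2 (28.3%). They fell into 50 runs, of which 41 were single windows, and 27.1% of their neighbouring windows were quiet against 19.9% of all windows. The longest run had 8 windows on scaffold 2 at 1790001 to 1870000. Runs of 3 lay at 210001 to 240000 and 1760001 to 1790000 of scaffold 1 and at 1560001 to 1590000 of scaffold 2, the last with 394 control tags in 30 kb.

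The 68 windows held 48766 start positions with a tag in any of the 6 libraries, and 60.4% of these positions had a single tag, against 47.7% in the other windows. Isolated tags of this kind made up a median of 17.7% of the tags of a quiet window (6.92% to 82.4%), against 4.21% in the others. The most abundant TSS cluster of a quiet window (a group of neighbouring start positions on 1 strand) held a median of 35.5% of its tags, against 51.5% elsewhere. The strand with fewer tags held 24.2% of the control tags at the median, against 19.1% elsewhere. Few tags make isolated tags more frequent by construction, so these shares describe the windows and were not tested.

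The 3 emptiest windows had no more than 25 tags in any library. The window of scaffold 2 at 1810001 to 1820000 had 13, 19 and 6 tags in control replicates 1 to 3 and 7, 12 and 17 in disruptant replicates 1 to 3. On scaffold 1, 210001 to 220000 had 8, 25 and 12 in the control and 11, 15 and 19 in the disruptant. That of scaffold 1 at 1770001 to 1780000 had 19, 16 and 10 in the control and 10, 16 and 17 in the disruptant. In each of them the strains overlapped, and none of the 3 held a cluster with enough tags to test. Over the 10 emptiest windows the control had 414, 587 and 341 tags per library and the disruptant 449, 528 and 576. As CPM (tags scaled to a common total of 1000000 tags in all windows) these were 297, 387 and 247 in the control and 293, 331 and 368 in the disruptant, which again overlapped. The emptiest windows were chosen on these same control tags, so the values are a description and not a test.

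Choosing windows for low control tags pushes the same control libraries down by chance. Windows were therefore ranked a second time on control replicate 1 alone, and the disruptant was compared with control replicates 2 and 3, which had no part in that ranking. This ranking also gave 68 windows, of which 66 were the same. The windows of scaffold 1 at 1690001 to 1700000 and of scaffold 2 at 180001 to 190000 came in, and those of scaffold 1 at 230001 to 240000 and 1130001 to 1140000 dropped out. All tests below concern the 68 windows ranked on control replicate 1 and leave that library out. The libraries held 1380910 to 1595610 tags in the 342 windows.

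Summed over the quiet windows, tags in the disruptant lay close to those in the control. Their summed level was 21758 and 20587 CPM in control replicates 2 and 3, and 22324, 21322 and 21658 in the disruptant libraries (scaled by TMM). The disruptant values lay around the higher control value. The group means were 21173 ± 828 (SD, n = 2) and 21768 ± 510 (SD, n = 3), a ratio of 1.03. Before scaling, control replicate 1, which ranked the windows, had the highest value of all 6 libraries, 22721 CPM. The ratio was 0.975 with windows ranked on control replicate 2 and 0.989 with windows ranked on control replicate 3. In each of these, the ranking library was left out and control replicate 1 was compared in its place. Control replicate 1 was again the highest library before scaling, at 23525 and 23347 CPM. The ratio was 1.11, 1.08 and 1.12 with 5-kb windows, 20-kb windows and 10-kb windows shifted by 5 kb. Its direction thus changed with the ranking and compared control libraries, which changed together, and its size with how windows are cut.

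Windows quiet in the disruptant were looked at in the same way. When windows were ranked on disruptant replicate 1 alone, the 68 quietest held 20379 and 20766 CPM, unscaled, in disruptant replicates 2 and 3. The 3 control libraries held 26481, 24238 and 23257 in the same windows, and the groups did not overlap. The ratio of disruptant to control was 0.839 with scaled values, while the median log2 difference of these windows was 0.00053. Of these windows, 7 were not quiet by the sum of control tags. They were chosen on both strains, for few tags in disruptant replicate 1 and more in the control, so their levels are a description, at 7260 ± 605 CPM in the control (SD, n = 3) and 4282 ± 13.7 in disruptant replicates 2 and 3 (SD, n = 2). In unscaled tags, all disruptant libraries lay below all control libraries in 5 of the 7, and in 2 the strains overlapped. The choice of these windows favoured that direction, so this count too is a description. Among all windows, 29.5% had the disruptant below control replicates 2 and 3 without overlap. That share rests on scaled levels and fewer control libraries, so it is not a like measure. Every disruptant library held more tags in all windows together than any control library, which raises its unscaled counts. The window with most control tags, on scaffold 2 at 1730001 to 1740000, had 2802, 2064 and 2077 tags in the control and 955, 1013 and 1290 in the disruptant. That with fewest, on scaffold 1 at 1690001 to 1700000, had 754, 1009 and 987 against 846, 1127 and 956 and is 1 of the 2 that overlapped. The other 61 windows were chosen for few tags in both strains, and their level, also a description, was 17331 ± 1010 CPM in the control (SD, n = 3) and 16354 ± 60.3 in disruptant replicates 2 and 3 (SD, n = 2), a ratio of 0.944. Of the quiet windows by control tags, 63 were also quiet by the sum of disruptant tags, and 58 were quiet in every one of the 6 libraries. Quiet windows were thus largely the same in both strains.

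Single windows did change, in both directions. Each window was tested with edgeR's quasi-likelihood test across all 342 windows, and called changed at a Benjamini-Hochberg adjusted p below 0.05. Of the 68 quiet windows, 8 rose and 11 fell in the disruptant, where the share called among all windows was 16.1% higher and 16.7% lower (11.8% and 16.2% of the quiet windows). The balance of rises and falls depended on how windows were cut, and rises outnumbered falls in each of 4 other tilings. With 5-kb windows there were 14 higher and 5 lower of 136 (10.3% and 3.68%, against 16.2% and 15.8% of all such windows). With 20-kb windows there were 8 and 2 of 33 (24.2% and 6.06%, against 21.3% and 18.3%), and 6 and 4 of 34 when these were shifted by 10 kb (17.6% and 11.8%, against 18.2% and 20%). With 10-kb windows shifted by 5 kb there were 12 and 6 of 67 (17.9% and 8.96%, against 15.6% and 18.3%). Quiet windows were called no more often than windows at large (27.9% against 32.7% of all windows in either direction), and they were measured less precisely, with a median standard error (SE) of 0.13 on the log2 scale against 0.09 elsewhere. At least 2-fold changes were called in 1 quiet window that fell and in 0 that rose, against 9 falls (2.63%) and 0 rises (0.0%) among all 342 windows. Of the 68 quiet windows, 25 had an unadjusted p below 0.05 in either direction, 19 were called by edgeR, and DESeq2 called 19 of the 54 to which it gave an adjusted p. The unadjusted and DESeq2 counts were not set beside all windows, so they do not show whether quiet windows differ from windows at large. The libraries of the strains did not overlap in 19 quiet windows with the disruptant above and in 15 with it below, 27.9% and 22.1%, against 30.1% and 29.5% of all windows. The counts rest on few libraries. Without control replicate 3 there were 2 higher and 5 lower (5.85% and 7.60% of all windows), and without control replicate 2 there were 6 and 7 (9.94% and 13.5% of all windows). Without disruptant replicate 2 there were 5 and 7 (11.7% and 12.6%), and without disruptant replicate 3 there were 5 and 9 (13.2% and 13.7%).

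The median log2 difference (disruptant minus control) was 0.03 over the quiet windows and 0.01 over all windows. Differences ran from −1.11 to 0.89, with an interquartile range of −0.28 to 0.20. All windows were also split by tags in control replicate 1 into 5 classes of 68 or 69 windows, and from the quiet class upwards the medians were 0.03, 0.07, −0.04, −0.03 and −0.02. The ranges of the classes overlapped widely. Within the quiet windows, the 17 with the fewest tags had a median of 0.08 with 1 called higher and 0 lower, and the next sets of 17 had medians of −0.04, 0.06 and 0.02. In the 17 with the fewest tags the summed levels of the groups were 924 ± 229 (SD, n = 2) and 970 ± 38.7 (SD, n = 3) CPM, a difference smaller than the control spread.

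**Figure D2:**
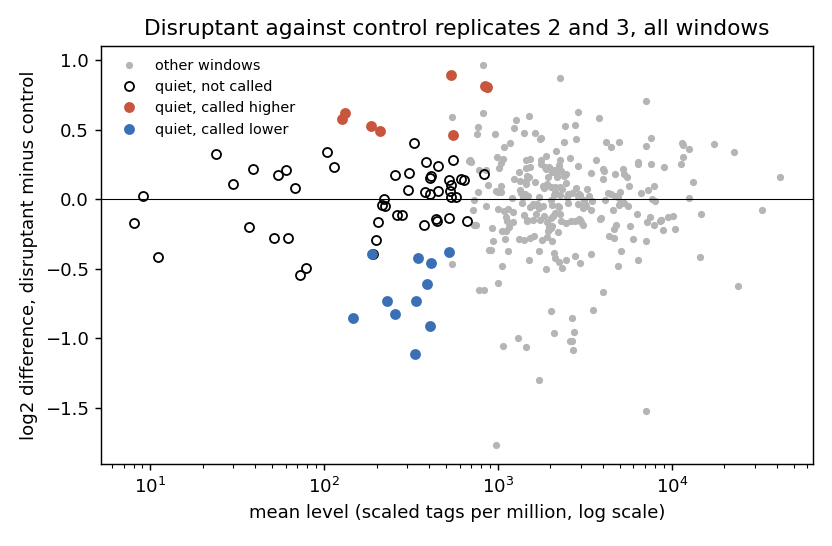
Log2 difference between the disruptant (3 libraries) and control replicates 2 and 3 against the mean level of each window in scaled CPM (log scale). Grey points are other windows, open circles are quiet windows that were not called, and the 8 red and 11 blue points are quiet windows called higher and lower.

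**Figure D3:**
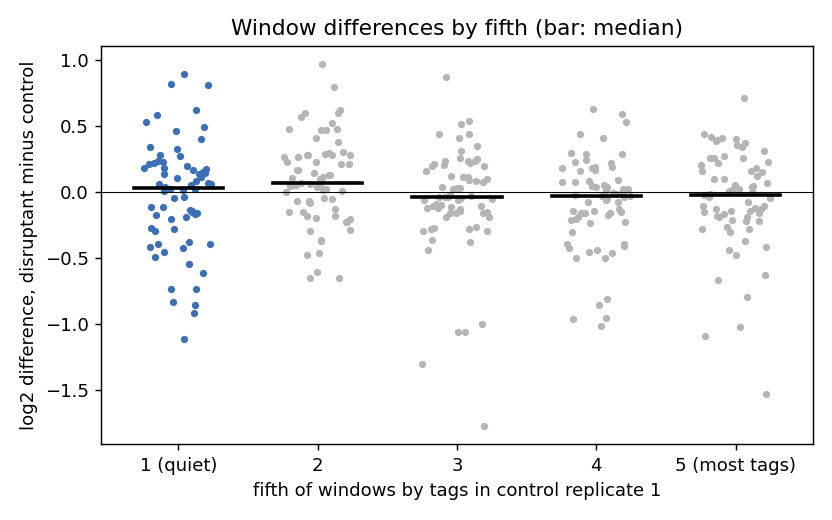
Log2 differences of all 342 windows, 1 point per window, in 5 classes by tags in control replicate 1 (class 1 is the quiet windows), with bars at the medians. The medians run from −0.04 to 0.07, and each class holds windows on both sides of 0.

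The 8 windows that rose did so 1.38-fold to 1.86-fold. The window of scaffold 1 at 90001 to 100000 rose most, with 642, 630 and 462 tags in the control and 1027, 1129 and 1134 in the disruptant (log2 0.89, SE 0.11, adjusted p = 0.00112 by edgeR). Every disruptant library was well above every control library, and 2 of its 21 tested clusters rose. On scaffold 2, the window at 1850001 to 1860000 went from 846, 1026 and 794 tags to 1658, 1729 and 1787 (log2 0.81, SE 0.09, adjusted p = 0.000881 by edgeR), again without overlap. That at 540001 to 550000 of scaffold 1 went from 931, 962 and 798 tags to 2251, 1235 and 1539 (log2 0.82, SE 0.24, adjusted p = 0.0361 by edgeR). There the disruptant libraries differed among themselves, with replicate 1 far above the others. It was not called without disruptant replicate 3 (adjusted p = 0.0616 by edgeR). Nor was it called without control replicate 2 or 3, where 1 control library was left and the log2 difference was 0.86 and 0.77. The call was also lost when control replicate 1 was compared in place of control replicate 2 or 3 (adjusted p = 0.0513 and 0.0565 by edgeR).

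The other 5 rises were smaller. On scaffold 1 at 1660001 to 1670000 tags went from 594, 729 and 608 to 927, 1059 and 1019 (log2 0.47, SE 0.10). On scaffold 1 at 1720001 to 1730000 they went from 225, 252 and 189 to 343, 358 and 331 (log2 0.53, SE 0.13). In this window 80.3% of all tags fell in a single cluster, and without the most abundant cluster the direction turned and the call was lost (adjusted p = 0.860 by edgeR). The windows of scaffold 2 at 1700001 to 1710000 (log2 0.49, SE 0.15), 1800001 to 1810000 (log2 0.58, SE 0.16) and 1830001 to 1840000 (log2 0.62, SE 0.16) followed. Each of these 3 lost its call without control replicate 3 (adjusted p = 0.163, 0.158 and 0.149 by edgeR). The first also lost it without control replicate 2, disruptant replicate 1 or disruptant replicate 2 (adjusted p = 0.137, 0.0633 and 0.0676 by edgeR), the second without disruptant replicate 2 or 3 (adjusted p = 0.0841 and 0.0604 by edgeR), and the third without disruptant replicate 3 (adjusted p = 0.0556 by edgeR). The third was also not called when control replicate 1 was compared in place of control replicate 2, in place of control replicate 3 or beside both. Its log2 difference was then 0.31, 0.24 and 0.39 (adjusted p = 0.371, 0.373 and 0.158 by edgeR). Nor was it called with a replicate block (adjusted p = 0.0629 by edgeR). The first was not called with control replicate 1 in place of control replicate 2 or 3 or with the block (adjusted p = 0.0732, 0.0571 and 0.0772 by edgeR). Leaving out control replicate 3 also ended the calls at 1660001 and 1720001 of scaffold 1 (adjusted p = 0.0716 and 0.109 by edgeR), and leaving out disruptant replicate 2 ended the latter (adjusted p = 0.0603 by edgeR). At 1830001 to 1840000, control replicate 1 had 226 tags, above the 225 of disruptant replicate 2, so that the strains overlapped once the ranking library was counted.

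Falls were called in 11 windows, and among the 10 with the smallest p they were 1.30-fold to 2.16-fold. The largest fall was on scaffold 1 at 740001 to 750000, from 748, 659 and 644 tags in the control to 320, 324 and 341 in the disruptant (log2 −1.11, SE 0.10, adjusted p = 0.000345 by edgeR). The libraries of each strain lay close together and far from the other strain. The window of scaffold 2 at 230001 to 240000 fell from 732, 772 and 745 tags to 399, 458 and 461 (log2 −0.91, SE 0.10, adjusted p = 0.000879 by edgeR), and 5 of its 17 tested clusters fell and 0 rose. Tags at 900001 to 910000 of scaffold 1 fell from 450, 300 and 243 tags to 155, 146 and 188 (log2 −0.85, SE 0.15, adjusted p = 0.00501 by edgeR). Its control libraries spread widely, with replicate 1 highest, and still did not overlap the disruptant.

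On scaffold 2, falls were called at 1120001 to 1130000 (log2 −0.83, SE 0.18), 1140001 to 1150000 (log2 −0.73, SE 0.14), 1460001 to 1470000 (log2 −0.61, SE 0.10), 1770001 to 1780000 (log2 −0.73, SE 0.15) and 1840001 to 1850000 (log2 −0.42, SE 0.10). The windows at 1140001 and 1460001 kept their call in all 15 combinations of other settings and left-out libraries. The windows at 1120001 and 1770001 lost it without control replicate 3 (adjusted p = 0.0667 and 0.0739 by edgeR). The window at 1840001 lost it without control replicate 2, control replicate 3 or disruptant replicate 2 (adjusted p = 0.0872, 0.0632 and 0.0794 by edgeR). On scaffold 1, the windows at 940001 to 950000 (log2 −0.39, SE 0.12) and 990001 to 1000000 (log2 −0.38, SE 0.09) had the smallest falls. They too lost their call when control replicate 3 was left out (adjusted p = 0.0983 and 0.0540 by edgeR), control replicate 2 (0.156 and 0.0932) or disruptant replicate 2 (0.175 and 0.0645), and the first of them without disruptant replicate 3 (0.121), with a replicate block (0.0533) or without its most abundant cluster (0.363). Total-count scaling ended the calls at 940001, 990001 and 1720001 of scaffold 1 (adjusted p = 0.187, 0.0991 and 0.0540 by edgeR) and at 1700001, 1800001 and 1840001 of scaffold 2 (adjusted p = 0.0651, 0.0675 and 0.0853 by edgeR).

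**Figure D4:**
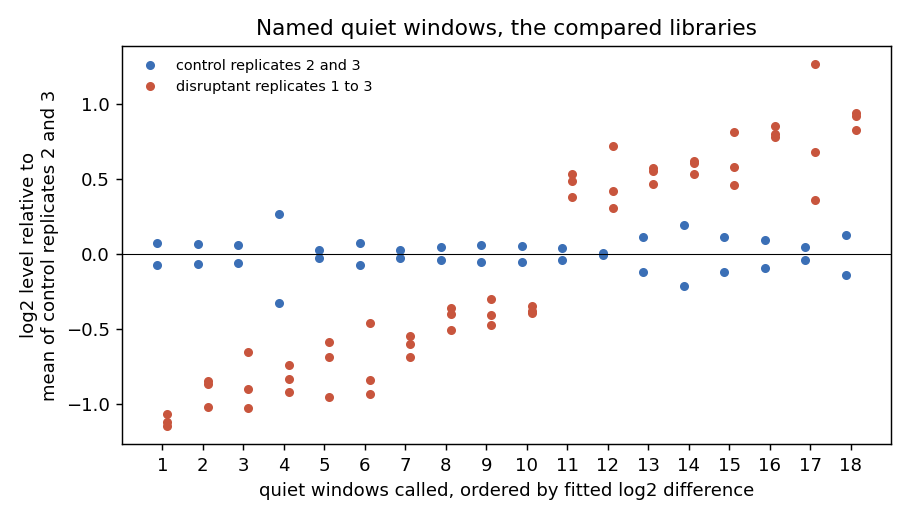
Level of each library relative to the mean of control replicates 2 and 3 (log2 scale) in 18 quiet windows, the 8 called higher and the 10 called lower with the smallest p, ordered by fitted difference. The 5 compared libraries are shown, control replicates 2 and 3 in blue and the disruptant in red, and in each window the red points lie on 1 side of the blue points. Control replicate 1, which ranked the windows, is not plotted and overlaps the disruptant on scaffold 2 at 1830001.

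Within the windows, change was also tested for single TSS clusters. Clusters were formed from positions with 2 or more tags joined within 20 bp on 1 strand. The quiet windows held 4801 clusters, of which 4216 had fewer than 20 tags over the 5 compared libraries and were not tested. Tests were made of 585, with 45 called higher and 42 called lower in the disruptant (7.69% and 7.18%). Among all 6759 clusters of the table that were tested, the share called was 6.14% higher and 7.90% lower, 14.0% in either direction. Of the called clusters of quiet windows, 15 higher and 4 lower averaged under 4 tags per library in the strain where they were low, and so reached 20 tags only through the strain where they were high. These had to differ to be tested, and the counts of calls are given as a description. Among the 476 clusters that averaged 4 or more tags in both strains, 30 were called higher and 38 lower (6.30% and 7.98%), against 5.95% and 8.18% of all such clusters. With edgeR's filterByExpr, 24 higher and 32 lower were called of 205 in quiet windows, against 329 and 365 of 2942 in the whole table. Rises thus outnumbered falls only with the pooled minimum of 20 tags among these 3 sets. At least 2-fold changes made up 34 of the higher and 33 of the lower calls (5.81% and 5.64% of the 585), against 3.51% and 5.21% of all tested clusters, with the same limit. The median log2 difference was 0.03 over these 585 clusters and 0.01 over all clusters. Without control replicate 3 the counts were 13 higher and 21 lower (2.50% and 4.05% of those tested, against 2.32% and 4.0% of all clusters), and without disruptant replicate 2 they were 27 and 23 (5.47% and 4.66%, against 4.11% and 5.55%).

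Called clusters lay in 39 of the 68 windows (57.4%), against 81.9% of all windows, counting also the clusters carried by 1 strain, with a median of 7.5 clusters tested per quiet window and 19 per window overall. In 13 windows all called clusters rose, in 13 all fell, and 13 held clusters called in both directions (19.1%, against 32.7% of all windows). Of the 49 windows that were not called as a whole, 21 held a called cluster (42.9%, against 74.3% of all windows not called). In those 21, start sites changed in windows whose total did not pass the test.

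Opposite changes in 1 window were found on scaffold 2 at 1770001 to 1780000. A minus-strand cluster there, at 1779708 to 1779925, fell from 330, 371 and 393 tags in the control to 60, 59 and 158 in the disruptant (log2 −2.18, SE 0.24, adjusted p = 1.71e-09 by edgeR). It made up 59.5% of the control tags of the window and 23.2% of the disruptant tags. Elsewhere in the window, a cluster on the plus strand, at 1776596 to 1776632, rose from 30, 23 and 9 tags to 75, 68 and 67 (log2 1.99, SE 0.32, adjusted p = 6.50e-06 by edgeR). Without its most abundant cluster, the window turned from a fall to a rise that was not called (log2 0.34, adjusted p = 0.0613 by edgeR).

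Changes in both directions were also seen on scaffold 2 at 1840001 to 1850000. On the plus strand, start sites at 1841737 to 1841804 fell from 256, 226 and 211 tags to 58, 89 and 60 (log2 −1.80, SE 0.21, adjusted p = 9.31e-09 by edgeR). Those at 1849619 to 1849687, also on the plus strand, rose from 16, 15 and 15 tags to 64, 51 and 68 (log2 1.88, SE 0.32, adjusted p = 2.07e-05 by edgeR). In both clusters the strains were far apart in all 6 libraries.

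Rises were also called at other start sites. On the minus strand of scaffold 1, start sites at 1669127 to 1669212 took 13.4% of the control tags of its window and 33.3% of the disruptant tags (88, 111 and 59 against 295, 350 and 355 tags). Start sites at 95649 to 95811 on the same strand went from 190, 160 and 112 tags to 402, 429 and 480 (log2 1.55, SE 0.19, adjusted p = 2.20e-08 by edgeR). It lay in the window that rose most, with 26.6% of that window's control tags and 39.8% of its disruptant tags. On scaffold 2, plus-strand start sites at 1801911 to 1801951 went from 20, 23 and 26 tags to 109, 102 and 66 (log2 1.77, SE 0.28, adjusted p = 7.81e-06 by edgeR). This was the 1 cluster called of 5 tested in the window at 1800001 to 1810000, whose own call was lost without its most abundant cluster (adjusted p = 0.627 by edgeR).

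Few control tags were counted on the minus strand of scaffold 2 at 1894055 to 1894091. Its tags numbered 5, 1 and 0 in control replicates 1 to 3 and 18, 11 and 18 in the disruptant, without overlap. The cluster reached 20 pooled tags only through the disruptant libraries, so that its presence among the tested clusters already required a difference, and its call is not counted as support. The fitted log2 difference was 4.54 over the compared libraries and 2.28 to 2.80 where control replicate 1 was included, so its size rests on that library. Its window, with 1621 control tags, was not called as a whole. The other named clusters that rose, on scaffold 2 at 1709854 to 1709948, 1758062 to 1758199, 1854688 to 1855032 and 1856706 to 1857063, did so 1.70-fold to 2.64-fold, and the last of these lost its call without control replicate 3 (adjusted p = 0.0697 by edgeR).

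Falls were shared by neighbouring start sites of both strands in the window of scaffold 1 at 740001 to 750000. On the minus strand, 742391 to 742517 fell from 209, 171 and 178 tags to 35, 62 and 60 (log2 −1.88, SE 0.23, adjusted p = 2.58e-08 by edgeR). On the plus strand, 742607 to 742828, which points away from it, fell from 260, 251 and 223 tags to 73, 79 and 82 (log2 −1.74, SE 0.20, adjusted p = 6.01e-09 by edgeR). Together these clusters form a divergent pair, an arrangement in which transcripts start in opposite directions from 1 region.

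At 1145865 to 1145901 on the minus strand of scaffold 2, tags went from 26, 27 and 26 to 1, 5 and 2, without overlap. Like the cluster at 1894055, it reached 20 pooled tags only through 1 strain, here the control, and its call is not counted as support. On that strand of scaffold 2, falls of 3.04-fold and 3.63-fold were found at 1466236 to 1466500 and 1467832 to 1467891. Those at 235887 to 236148 and 239343 to 239644 were 2.54-fold and 2.82-fold. Near the high end of scaffold 1 the cluster at 1999894 to 1999935, also on the minus strand, fell 2.77-fold, from 166, 121 and 143 tags to 41, 63 and 54, in a window that was not called as a whole.

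The cluster of the quiet windows with most control tags did not pass the test. It lay on the minus strand of scaffold 1 at 351417 to 351675 and had 784, 649 and 618 tags in the control and 980, 615 and 647 in the disruptant (log2 0.10, SE 0.17, adjusted p = 0.765 by edgeR). It held 84.5% of the control tags and 86.3% of the disruptant tags of its window. Over the 5 compared libraries another cluster held more tags, the plus-strand start sites of scaffold 1 between 547756 and 548048, chosen after its values were seen. It went from 559, 622 and 514 tags to 1707, 766 and 1027 (log2 0.91, SE 0.19, adjusted p = 0.000599 by edgeR), with disruptant replicate 1 far above the others.

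In the longest run of quiet windows, on scaffold 2 at 1790001 to 1870000, the windows did not move together. Along the run, 3 windows were called higher (1800001, 1830001 and 1850001 as first base), 1 was called lower (1840001), and 4 were not called. Among all windows 16.1% were called higher and 16.7% lower. The call at 1850001 was kept in all 15 combinations of other settings and left-out libraries. Those at 1800001, 1830001 and 1840001 were kept in 10, 9 and 11 of 15. The 2 windows at 1840001 and 1850001 lie side by side and went in opposite directions. The emptiest window of all, at 1810001, lies inside this run and had 6 to 19 tags per library in the 2 strains. In the run, control tags lay mostly on the plus strand in 7 of 8 windows, with 91.8% at 1800001 and 92.2% at 1860001, the exception being 47.0% at 1790001.

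**Figure D5:**
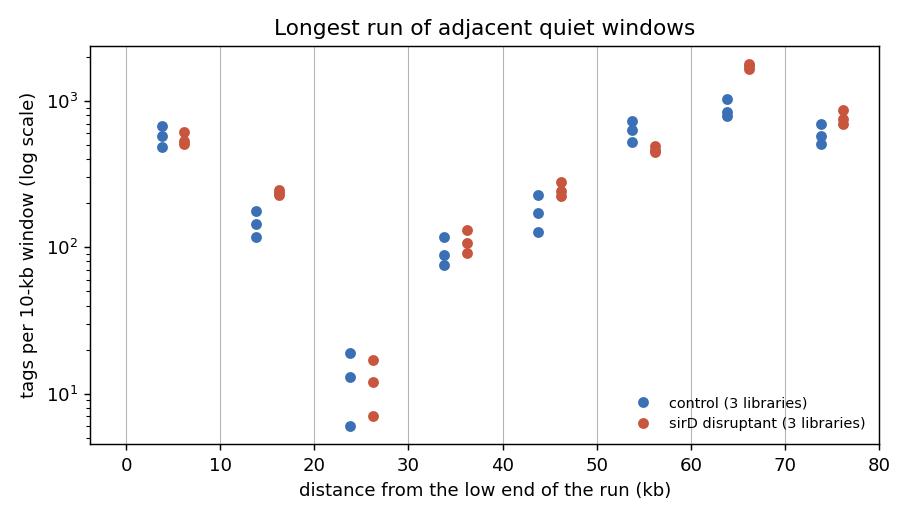
Tags per library (log scale) in the 8 adjacent quiet windows of scaffold 2, by distance from the low end of the run, with 3 control libraries in blue and 3 disruptant libraries in red. The window at 20 to 30 kb holds 6 to 19 tags per library, and the window at 60 to 70 kb rises from 794 to 1026 tags in the control to 1658 to 1787 in the disruptant.

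The number of start positions in use was compared at equal depth, with each library thinned to 1380910 tags. In the quiet windows 13799 and 11817 positions were expected in control replicates 2 and 3, and 12675, 13327 and 13404 in the disruptant. All disruptant values lay between the control values. The means were 12808 ± 1401 (SD, n = 2) and 13135 ± 401 (SD, n = 3). Isolated tags, at positions with a single tag over all libraries, were 15.4% ± 2.82 of the quiet tags in the control (SD, n = 2) and 15.3% ± 1.47 in the disruptant (SD, n = 3). Neither measure differed beyond the spread between libraries.

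The share of tags on each strand was also counted. In the quiet windows, the plus strand held 42.9%, 43.5% and 42.6% of the tags in control replicates 1, 2 and 3 and 46.0%, 44.6% and 45.5% in the disruptant libraries, without overlap. In the other windows it held 45.5%, 45.7% and 45.9% in the control and 46.3%, 45.9% and 45.8% in the disruptant, where the strains overlapped. The share is a description over windows chosen with results known, and it was not tested. It is a share of summed tags, so clusters with many tags weigh most. The plus-strand cluster of scaffold 1 at 547756 alone went from 559, 622 and 514 tags to 1707, 766 and 1027. Named clusters of each strand both rose and fell. Whether a few clusters carry the difference was not tested, and a shift shared by many windows cannot be read from it.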

How the data were processed

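CAGE libraries (3 control, 3 sirD disruptant) were analysed from whole-number tag counts per position and strand as deposited by the authors. FastQC, BWA and bedtools are named, without versions, in the submitters' processing notes. The build, the mapping settings and the handling of multi-mapping reads are not stated there. Libraries held 3148498 to 3580777 tags in the deposited table, which covers part of the genome and is not their full depth. Positions count from 0 in the table, and 1 was added. No sequence or annotation in these coordinates was used, so windows and clusters carry no gene names.

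Windows and clusters were compared with edgeR 4.0.16 (R 4.3.3, TMM scaling, quasi-likelihood test, Benjamini-Hochberg adjustment over all windows or all clusters, threshold 0.05), control replicates 2 and 3 against 3 disruptant libraries. Windows were not filtered. Clusters had 20 or more tags pooled over these 5 libraries, and a cluster belongs to the window of its peak. Levels are CPM with TMM factors unless given as tags or as unscaled. Expected positions after thinning were computed exactly. The window and cluster tests were checked on simulated data. The members, windows and tests were chosen with earlier results of these data known. Named are up to 10 windows and 10 clusters in each direction with the smallest p, the emptiest windows, those beside the limit, the longest run and the cluster with most control tags; other windows named, such as those that the rankings exchanged, were chosen after their values were seen. DESeq2 1.42.0 was an alternative.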

Additional observations from a re-analysis of the deposited data

How the results depend on the processing

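The main values were 8 quiet windows higher and 11 lower, 45 clusters higher and 42 lower, a median log2 difference of 0.03 and a ratio of summed levels of 1.03. Windows called numbered 5 higher and 7 lower with total-count scaling, 4 and 12 with windows ranked on control replicate 2, 6 and 12 on control replicate 3, 14 and 5 of 136 with 5-kb windows, 8 and 2 of 33 with 20-kb windows, 6 and 4 of 34 with 20-kb windows shifted by 10 kb (an alternative chosen after seeing the data), 12 and 6 of 67 with 10-kb windows shifted by 5 kb, 4 and 3 in the tenth with fewest tags, and 3 and 6 at an adjusted p below 0.01. Falls thus outnumbered rises in the main windows and the reverse held in these 4 other tilings. With windows ranked on control replicate 2 or 3, that library was left out and control replicate 1 was compared in its place. Ranking and compared libraries thus changed together. The tenth with fewest tags held 34 windows, and its counts stand against 16.1% higher and 16.7% lower of all windows. Shares over all windows were not set beside the counts with total-count scaling, the other rankings and the stricter threshold. These counts are a description and do not show whether quiet windows differ from windows at large. Without 1 library, 2 to 8 windows were higher and 5 to 11 lower, 13 to 42 clusters were higher and 21 to 41 lower, the median log2 difference ran from −0.092 to 0.12 and the ratio from 1.00 to 1.06. Without control replicate 2 a lone control library is assumed to vary like the others, and likewise without control replicate 3. The median log2 difference was −0.059 with windows ranked on control replicate 3, 0.10 with 5-kb windows and 0.10 with 20-kb windows. The ratio was 0.975 and 0.989 with windows ranked on control replicates 2 and 3, 1.11 with 5-kb windows, 1.08 with 20-kb windows, 1.12 with windows shifted by 5 kb and 0.839 with windows ranked on disruptant replicate 1. Clusters called numbered 23 higher and 25 lower of 351 with DESeq2, and 24 and 32 of 205 with filterByExpr (329 and 365 of 2942 in the whole table). In the tenth with fewest tags they numbered 10 and 10 of 177, against 6.14% and 7.90% of all tested clusters. At an adjusted p below 0.01 they numbered 22 and 26 of 585. Shares over all clusters were not set beside the counts from DESeq2 and the stricter threshold. Start positions at equal depth had a ratio of 1.03, and 0.954 with windows ranked on control replicate 3. Some of these settings had fewer samples, fewer windows or a stricter threshold, and the cause of the moves was not tested.

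Same-numbered libraries deviated together at correlations of 0.29, 0.33 and −0.04 over windows, against −0.36 to 0.15 between libraries of other numbers. The values of replicates 1 and 2 were the highest. Control replicate 3 was near 0 with every disruptant library and closest to disruptant replicate 2 (0.05). Whether the numbers pair the libraries cannot be told from these values. With a replicate block, 7 windows were higher and 11 lower, and 43 clusters were higher and 43 lower, counts that were not set beside all windows and clusters. Named windows kept their direction and call in 223 of 270 combinations run and named clusters in 276 of 277. Direction turned without the most abundant cluster in the windows of scaffold 1 at 1720001 (log2 −0.085) and of scaffold 2 at 1770001 (log2 0.34). Few tags limit the emptiest windows, where the SE reached 0.68.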
